A study of Rattus norvegicus with 34 samples.

Results

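The left ventricle of saline-treated rats was compared with peripheral blood mononuclear cells (PBMC), the lymphocytes and monocytes of the blood, on the control arrays of both tissues. The heart side comprised the 8 arrays labelled saline control, replicates 1 to 8. The PBMC side comprised the 8 arrays labelled doxorubicin (DOX) treated, replicates 2 to 9. These 16 of the 34 arrays of the series were chosen because the supplementary gene table of the study treats them as its controls. For the PBMC arrays this conflicts with the sample labels, since 16 of the 17 PBMC arrays stand on the other side in that table. The PBMC estimates of the table correlated at r = 1.0 over 1998 probes with differences of means in which the arrays labelled DOX 2 to 9 were the controls, and at r = -0.9811 with differences taken by the labels, whereas the heart estimates fitted the labels (r = 1.0). If the labels were right, tissue and treatment cannot be told apart here. Each result was therefore also computed against the 8 PBMC arrays labelled saline, replicates 1 to 8, and these arrays are called labelled saline below.

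The animals were female Sprague-Dawley rats that received 1 intraperitoneal injection of saline or of 12 mg/kg DOX, an anthracycline used against tumours, and both tissues were taken 48 h later. Their age was not given in the sources used here. Ventricular muscle was frozen as tissue, so each heart array averages cardiomyocytes, vessels, connective tissue and the blood left in it. PBMC were separated from blood on a density gradient. The RNA was amplified to cDNA and hybridized to Illumina RatRef-12 BeadChips. By the methods of the study, the sample number marks the rat. By the labels, a heart array numbered among the saline rats and a PBMC array of the same number among the DOX rats would come from different rats. If the gene table is right, both sets would come from the same control rats, and which numbers then match is not stated. The arrays were compared without pairing, so a shared rat is not accounted for, and the p-values measure the spread between arrays.

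A working cardiomyocyte contracts by sliding myosin along actin in the sarcomere, triggered by calcium that the sarcoplasmic reticulum releases and takes back at each beat, and it burns mainly fatty acids in its mitochondria. Lymphocytes are small round cells that recognise antigen through receptor complexes such as CD3, move by remodelling their actin cortex and follow chemokines. The 2 tissues share the genes of translation, splicing and basic metabolism, but often use different members of 1 gene family for the same task.

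Promoters of 4 of the genes with the largest differences are shown as the regulatory sequence next to the ends of this comparison. Myh6 (cardiac alpha-myosin heavy chain) and Mb (myoglobin) were high in the heart, and Cd3d and Cd3g, chains of the T cell receptor complex, were high in PBMC. Each sequence holds the 250 bases before the annotated start, 5′ to 3′ on the strand of the gene, from RefSeq on build GRCr8, at chr15:32411698-32411947 on the minus strand for Myh6, chr7:110647743-110647992 on the minus strand for Mb, chr8:54185269-54185518 on the plus strand for Cd3d and chr8:54183919-54184168 on the minus strand for Cd3g. Capitals mark matches, on either strand, to any of the motifs searched.
Myh6: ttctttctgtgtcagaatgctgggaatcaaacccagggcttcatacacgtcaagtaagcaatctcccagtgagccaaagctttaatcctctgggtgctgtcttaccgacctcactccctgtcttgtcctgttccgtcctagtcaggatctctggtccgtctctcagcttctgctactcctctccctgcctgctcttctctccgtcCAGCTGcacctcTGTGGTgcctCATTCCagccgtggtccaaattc
Mb: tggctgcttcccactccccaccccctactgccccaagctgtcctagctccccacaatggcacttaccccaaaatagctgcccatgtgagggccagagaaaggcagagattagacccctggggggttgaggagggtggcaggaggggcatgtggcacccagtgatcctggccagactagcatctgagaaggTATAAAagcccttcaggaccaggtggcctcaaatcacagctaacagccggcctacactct
Cd3d: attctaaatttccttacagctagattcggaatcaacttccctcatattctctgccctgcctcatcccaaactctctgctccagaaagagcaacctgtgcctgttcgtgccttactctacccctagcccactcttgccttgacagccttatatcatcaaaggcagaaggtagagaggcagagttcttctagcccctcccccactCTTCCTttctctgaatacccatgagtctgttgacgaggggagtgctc
Cd3g: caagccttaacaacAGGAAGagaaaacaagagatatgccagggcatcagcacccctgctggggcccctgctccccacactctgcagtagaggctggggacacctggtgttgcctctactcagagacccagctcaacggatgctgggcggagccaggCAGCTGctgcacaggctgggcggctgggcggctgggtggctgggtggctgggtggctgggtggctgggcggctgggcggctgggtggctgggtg
The motifs searched were the TATA box (TATAAA), the GATA motif (AGATAA), the MCAT element (CATTCC), the E-box CAGCTG, the ETS motif (AGGAAG) and the RUNX motif (TGTGGT), together with the MEF2 site and the CArG box, which are given here by name. Myh6 held an E-box, a RUNX motif and an MCAT element at 45, 33 and 23 bases before the start. Mb held a TATA box at 60 bases, Cd3d an ETS motif at 47 bases, and Cd3g an ETS motif at 236 and an E-box at 94 bases before the start. The starts of Cd3d and Cd3g lie 1601 bases apart on opposite strands of chromosome 8, and those of Myh6 and Myh7 26497 bases apart on the same strand of chromosome 15.

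Such matches are descriptions of letters and not of bound sites. Of all 33469 promoters in the table, 12.9% held the TATA box, 12.1% the MCAT element, 12% the E-box, 29.5% the ETS motif, 14.5% the RUNX motif, 10.3% the GATA motif, 2.96% the MEF2 site and 1.5% the CArG box. Among the called genes with a promoter in the table, the MEF2 site was held by 3.77% of the 823 higher in the heart and 0.858% of the 1631 lower in the heart, beside 1.42% of the 5429 tested. The MCAT element was held by 13.4% of the higher and 8.65% of the lower genes, beside 9.93% of those tested. The ETS motif was held by 29.8% of the higher and 34.5% of the lower genes, beside 30.4% of those tested. The other motifs follow with the shares of the higher, the lower and the tested genes. They were 8.75%, 7.91% and 7.15% for the TATA box, and 6.44%, 6.13% and 6.15% for the GATA motif. The E-box had 14.5%, 11.6% and 12.1%, the RUNX motif 8.99%, 11.3% and 11%, and the CArG box 1.09%, 1.47% and 0.995%.

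A level is given as log2 intensity above the median of the probes classed as not expressed on the same array, so that 0 is background and 1 unit is 2-fold. Differences are heart minus PBMC with limma's moderated standard error from 8 arrays of each tissue. To be called, a gene had to differ by more than 2-fold with a Benjamini-Hochberg adjusted p below 0.05. Of 6760 expressed genes, 3100 (45.9%) were called, 1084 of them (16%) higher and 2016 (29.8%) lower in the heart. The median difference of all genes was -0.37, and the median standard error 0.115. The 8 heart and 8 PBMC arrays did not overlap for 1392 genes higher (20.6%) and 2686 genes lower (39.7%) in the heart. The difference exceeded 32-fold for 59 higher and 43 lower genes. Of the called genes, 405 higher ones were at background on all 8 PBMC arrays and 284 lower ones were at background on all 8 heart arrays. Here background means below the 95th percentile of the probes not expressed on that array, a floor of 0.25 to 0.42 on heart and 0.33 to 0.49 on PBMC arrays.

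**Figure D1:**
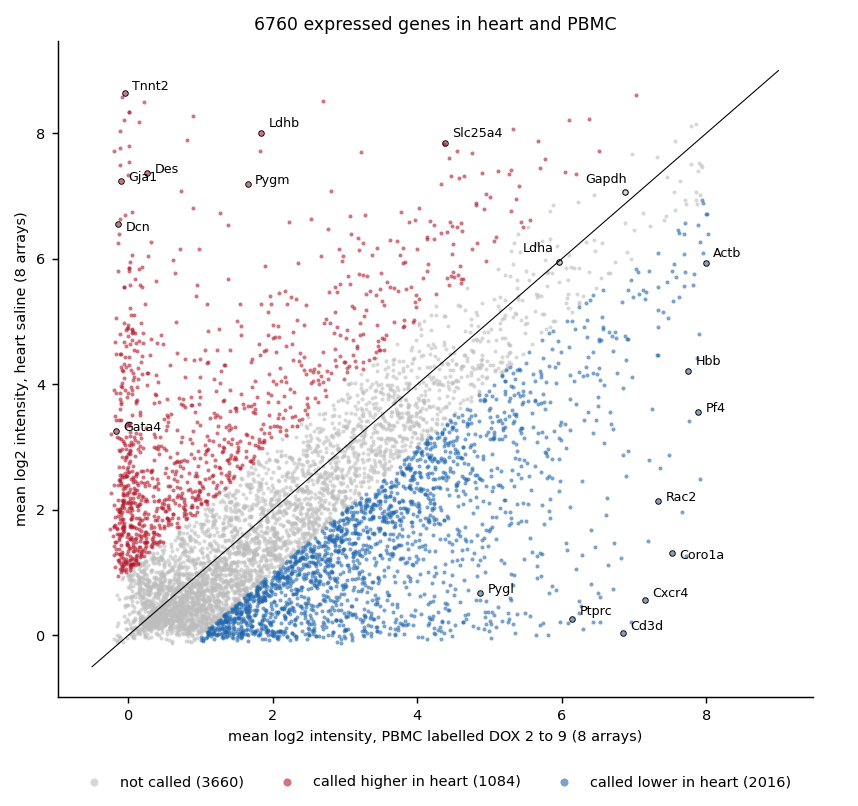
Mean log2 intensity of the 6760 expressed genes on the 8 heart saline arrays (vertical axis) and on the 8 PBMC arrays labelled DOX 2 to 9 (horizontal axis), both above background of 0. Red points are the 1084 genes called higher in the heart, blue points the 2016 called lower and grey points those not called, and the line marks equal values. The column of red points near 0 on the horizontal axis and the band of blue points near 0 on the vertical axis hold genes at background in the other tissue.

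The arrays of the 2 tissues differed in signal range. The median of the expressed genes lay between 1.32 and 1.79 on heart and between 1.70 and 2.17 on PBMC arrays, a difference of -0.38 (two-sided exact permutation test over 12870 splits, p = 0.000777, adjusted over 4 measures 0.00104). The interquartile range (2.07 to 2.40 in heart, 2.39 to 2.77 in PBMC) and the 99th percentile of all probes (5.92 to 6.44 in heart, 6.49 to 6.88 in PBMC) were also lower in the heart (adjusted p = 0.000622 for each by the same exact test). Quantile normalization removed this difference and shifted the median of all genes by 0.32, to -0.046. It called 1430 genes higher and 1314 lower, so that the share of higher genes among those called was 52.1%, against 35% without it. All 1084 higher genes remained higher and 1314 of the lower genes remained lower. The number of genes on each side therefore rests on the scaling, and differences are best read relative to -0.37. Within a tissue the arrays correlated over the expressed genes at r = 0.968 to 0.993 in the heart and 0.959 to 0.989 in PBMC, and between tissues at 0.485 to 0.539, values across genes that are not independent replicates.

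The labelled tissues were checked with defining markers. The 6 cardiomyocyte markers Myh6, Actc1, Tnnt2, Tnni3, Mybpc3 and Ryr2 were above the floor on 8 of 8 heart arrays and on 0 of 8 PBMC arrays. In the opposite direction, the T cell marker Cd3d and the B cell markers Cd79b and Ms4a1 were above the floor on 0 of 8 heart and 8 of 8 PBMC arrays. The heart arrays did carry some leukocyte signal. Coro1a, Cd53, Laptm5, the NK marker Nkg7 and the monocyte marker Cd14 were above the floor on 8 of 8 heart arrays. Ptprc (CD45) and Cd3e were above it on 1 each, and the NK marker Klrd1 on 2. Of the platelet, red cell and neutrophil markers, Pf4 and Hbb were above it on 8 of 8, S100a8 on 7 and Slc4a1 on 6. Ppbp, Alas2, Hba-a2, S100a9 and Mpo were above it on 0 of 8. The fibroblast markers Col1a1, Col3a1 and Dcn were above the floor on 8 of 8 heart and 0 of 8 PBMC arrays, and the endothelial marker Cdh5 on none of the 16. Cd2, Cd79a, Csf1r, Cd68, Itga2b, Pecam1, Kdr, Myh11 and Plin1 were not analysed here. In bulk samples of this kind, fewer cells of a type and less RNA per cell cannot be told apart. A gene counted as expressed by its average over all 34 arrays, so a gene present in 1 tissue only had to differ, and the counts within the lists below describe the lists and support nothing further.

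The largest differences in favour of the heart belonged to the contractile apparatus and to oxygen and energy supply. Tnnt2 (cardiac troponin T, which anchors the troponin complex on the thin filament) ranged from 8.47 to 8.76 on heart arrays with a median of 8.63, and from -0.16 to 0.06 on PBMC arrays with a median of -0.05. The difference of 8.69 ± 0.07 makes it at least 301-fold higher in the heart, the PBMC floor standing in for a level that was not above background. Myh6, the motor protein of the adult rat ventricle, differed by 8.66 ± 0.07 (at least 287-fold), with 8.47 to 8.71 in heart and -0.26 to 0.08 in PBMC. Myh7, the slow myosin heavy chain, differed by 8.15 ± 0.10 (at least 197-fold). Mb, the oxygen store of muscle, was at least 244-fold and Cryab, the small heat shock protein of the Z-disc, at least 243-fold higher in the heart. Tpm1 (tropomyosin), Tnni3 (cardiac troponin I) and Myl3 (a ventricular essential light chain) were at least 273-fold, 223-fold and 217-fold higher. Tnnc1 (troponin C) alone among these 15 genes was not at background in PBMC by this definition, with 8.09 to 8.36 in the heart and 0.41 to 1.25 in PBMC, 167-fold apart. Ankrd1 (a stress-responsive titin partner, at least 163-fold), Myoz2 (a calcineurin-binding Z-disc protein, at least 136-fold), Ckm (muscle creatine kinase, at least 158-fold), Fabp3 (the heart fatty acid carrier, at least 167-fold) and the muscle subunits of cytochrome c oxidase Cox6a2 and Cox8b (at least 140-fold and 121-fold) complete the 15.

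**Figure D2:**
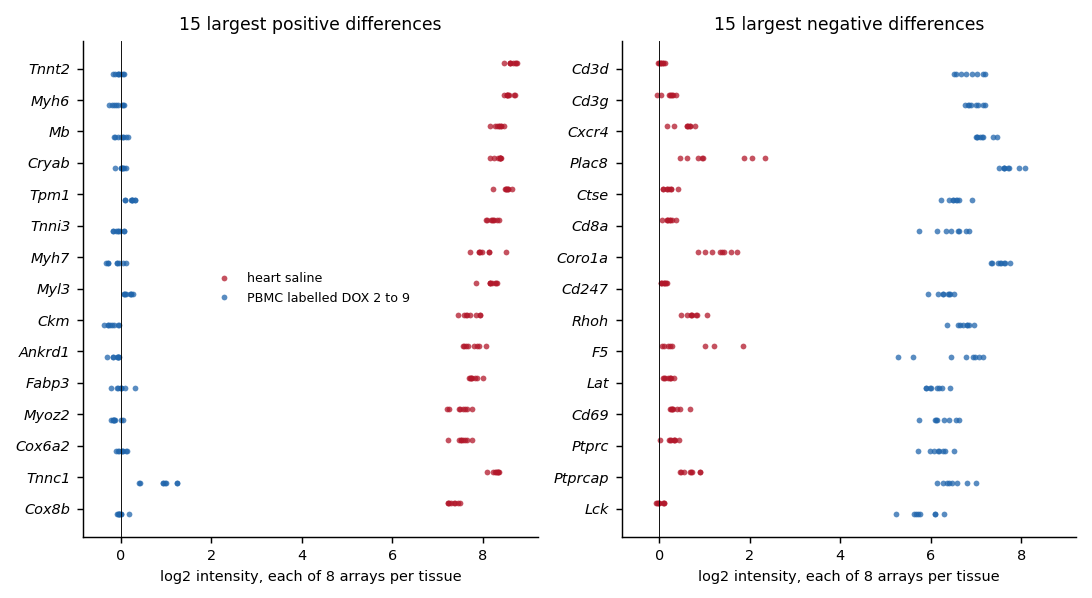
Log2 intensity above background on each of the 8 heart saline arrays (red) and the 8 PBMC arrays labelled DOX 2 to 9 (blue) for the 15 genes with the largest positive (left) and the 15 with the largest negative difference (right). No array of 1 tissue reaches the values of the other. Heart values of the left genes lie near or above 7 and PBMC values of the right genes above 5.

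All 20 sarcomere genes tested were higher in the heart (16% of all genes were), with a median difference of 7.24 and a range of 1.17 to 8.69, and 18 of them were at background in PBMC. The list named 26 genes, of which 6 were not analysed here, titin (Ttn) and telethonin (Tcap) among them. Its smallest differences were those of Mypn and of Actc1, cardiac alpha-actin, which read 0.81 to 1.66 on heart arrays and -0.12 to 0.26 on PBMC arrays (1.17 ± 0.10, at least 1.73-fold). Levels of different probes are not comparable, and the low reading of Actc1 says nothing of its abundance beside the other genes. Myh6 and Myh7 are close copies, and cross-hybridization between their probes was not tested.

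The 15 tested genes of calcium handling and excitation were likewise all higher in the heart, by a median of 2.76, and 13 of them were at background in PBMC. Gja1 (connexin 43, the channel of the ventricular gap junction) read 6.67 to 7.63 in the heart and -0.18 to -0.01 in PBMC, at least 113-fold higher. Atp2a2 (SERCA2, the calcium pump of the reticulum) was 56.3-fold higher, at 8.14 to 8.68 in heart against 1.94 to 3.47 in PBMC. Fxyd1 (phospholemman, a regulator of the sodium pump) and Hrc (a calcium-binding protein of the reticulum lumen) were at least 25.9-fold and 22.4-fold higher. Ryr2, the calcium release channel, differed by 1.11 ± 0.11, and its heart values of 0.47 to 1.47 lay close to the floor. Slc8a1, Kcnj2, Kcnh2, Jph2 and Adrb1 had a probe but stayed below the value that divides expressed from not expressed genes, and Pln and Srl were not analysed here.

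Mitochondrial genes were higher in the heart but, unlike the sarcomere genes, were mostly well above background in PBMC too. Of 27 genes of fatty acid oxidation 24 were higher, with a median of 2.86. Lpl (lipoprotein lipase, which frees fatty acids at the capillary wall) read 7.73 to 8.06 in heart against 0.23 to 1.79 in PBMC, a 135-fold difference. Cpt1b, the muscle gate of fatty acid entry into mitochondria, was at least 18.3-fold higher (4.64 ± 0.07). Its partner Cpt2 was above background in PBMC, at 0.68 to 1.38, and differed by 4.64 ± 0.10. Ucp3 (0.99 ± 0.09), Acot2 (0.82 ± 0.12) and Slc27a1 (0.72 ± 0.12) missed the fold threshold.

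Of 15 genes of the tricarboxylic acid cycle 12 were higher (median 2.13), led by Pdhb of pyruvate dehydrogenase (3.38 ± 0.13), Ogdh (2.86 ± 0.09), the succinate dehydrogenase subunit Sdha (2.69 ± 0.11) and Dlst (2.65 ± 0.09). The subunits of NAD-dependent isocitrate dehydrogenase went separate ways. Idh3b fell by 1.98 ± 0.13 in the heart, at 1.95 to 2.61 against 3.86 to 4.86 in PBMC, Idh3g was higher by 1.40 ± 0.12, and Idh3a differed by 0.51 ± 0.08 without a call, Idh3g having been singled out after its value was seen. Cs, citrate synthase, was not called either (0.58 ± 0.16). The lower reading of Idh3b did not hold against the labelled saline arrays, where the difference was 0.37 and not called.

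Of 35 respiratory chain and ATP synthase genes 32 were higher (median 2.07), led by the complex I subunits Ndufs1 (6.37 to 6.90 in heart, 1.67 to 2.62 in PBMC, 20.4-fold) and Ndufa5 (11.9-fold), by Cycs (cytochrome c, 7.58-fold) and by Ndufv2 (6.89-fold). Ndufa1 (0.58 ± 0.11), Cox6c (0.63 ± 0.08) and Atp5mc3 (0.25 ± 0.08) were not called, the last 2 with heart means of 0.84 and 0.55 near background.

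**Figure D3:**
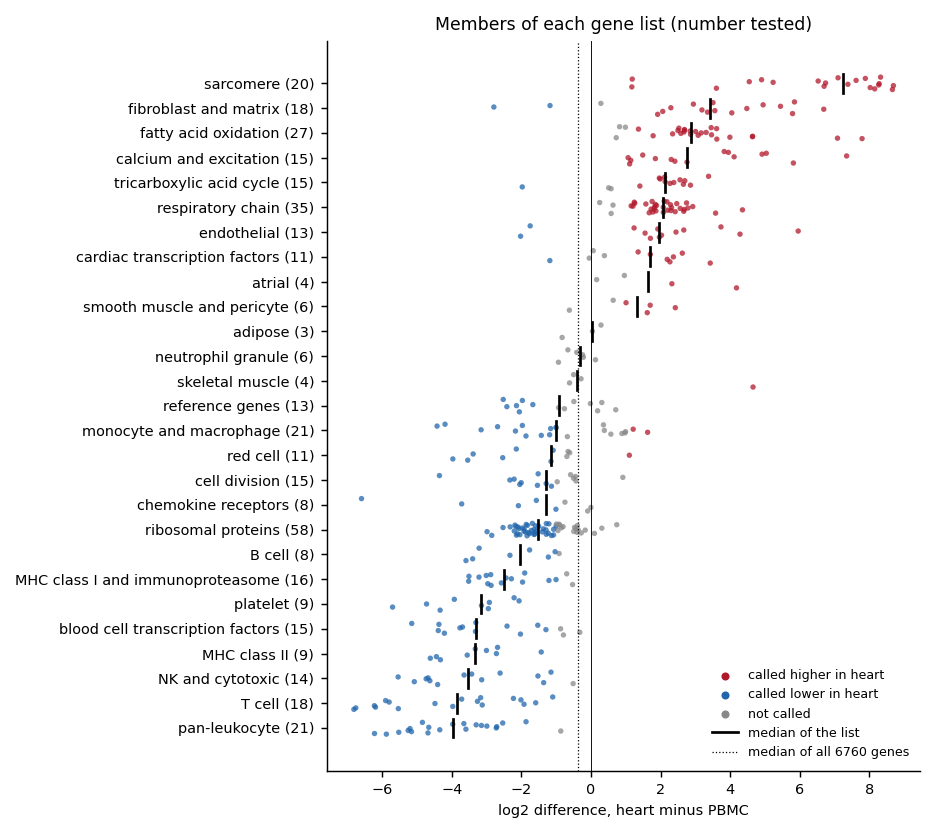
Difference of log2 intensity, heart minus PBMC, for every tested member of 27 gene lists, with the number tested in parentheses. Red points were called higher in the heart, blue points lower and grey points not called. Black bars mark list medians, from 7.24 for the sarcomere at the top to -3.97 for pan-leukocyte genes at the bottom, and the dotted line the median of all 6760 genes at -0.37.

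Of 11 cardiac transcription factors 7 were higher in the heart, by a median of 1.70. Gata4, a zinc finger factor of the cardiac lineage, read 2.70 to 3.78 in heart and -0.26 to -0.01 in PBMC (3.42 ± 0.12, at least 7.21-fold). Irx4 (a ventricle-restricted homeobox factor), Hand2 and Gata6 were at least 4.51-fold, 4.13-fold and 4.09-fold higher. Mef2d ran the other way at -1.18 ± 0.08, with 0.20 to 0.55 in heart and 1.27 to 1.78 in PBMC, a call that was lost after quantile normalization. Srf (0.38 ± 0.14), Prox1 (0.06 ± 0.07) and Hand1 (-0.05 ± 0.07) were not called, and Srf was well above background in both tissues.

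Of 15 blood cell transcription factors 12 were lower in the heart and none was higher, by a median of -3.31. Quantile normalization left 10 of the 15 lower. Nfe2, a factor of megakaryocytes and red cell precursors, had the largest difference (-5.15 ± 0.21), at -0.14 to 0.78 in heart and 4.03 to 5.98 in PBMC. Lef1 and Stat4, factors of T cells, were at least 15.9-fold and 17.4-fold lower in the heart, and Runx1 was 18.5-fold lower. Cebpb (-0.87 ± 0.19), Spi1 (-0.79 ± 0.07) and Runx3 (-0.32 ± 0.07) were not called. Against the labelled saline arrays 3 of the 15 were called lower and 2 higher, where 6.14% of all genes were lower and 39.1% higher.

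The heart also stood above PBMC in genes of its vessels and connective tissue. Of 18 fibroblast and matrix genes 15 were higher (median 3.43). Dcn (decorin, a collagen-binding proteoglycan) read 6.23 to 7.05 in heart and -0.32 to 0.04 in PBMC, at least 70.3-fold higher. Lamb2 (a laminin chain) and Col1a2 (a chain of type I collagen) were at least 43.4-fold and 41.9-fold higher, and Sparc 43.5-fold. The markers Col1a1 and Col3a1 were higher by 1.91 ± 0.15 and 4.04 ± 0.23. Fn1 and Bgn ran the other way, with -2.79 ± 0.33 and -1.18 ± 0.20. Fn1 (fibronectin) read 1.31 to 3.67 in heart and 3.42 to 5.95 in PBMC, and Bgn (biglycan) 0.74 to 1.70 in heart and 1.07 to 2.79 in PBMC. The Bgn call was lost after quantile normalization (-0.81). Heart array 6 was the highest for both and alone overlapped the PBMC range of Fn1. Timp3 was not called (0.28 ± 0.12).

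Of 13 endothelial genes 11 were higher in the heart (median 1.96). Fabp4, the fatty acid carrier of capillary endothelium and fat, was 61.9-fold higher, at 5.997 to 6.54 against 0.17 to 0.58 in PBMC. Emcn (endomucin) and Nos3 (endothelial nitric oxide synthase) were at least 13.9-fold and 4.7-fold higher, and the water channel gene Aqp1 was 13.3-fold higher. Vwf (-2.02 ± 0.28), which platelets also carry, and Icam2 (-1.75 ± 0.14), which leukocytes also carry, were lower. Of 6 smooth muscle and pericyte genes 4 were higher (median 1.31), Smtn by 2.42 ± 0.17, Cspg4 by 1.70 ± 0.09, Tagln by 1.62 ± 0.14 and Kcnj8 by 1.01 ± 0.08, while Mustn1 (0.64 ± 0.11) and Mylk (-0.62 ± 0.13) were not called. Kcnj8 sat on the threshold, and its difference lay between 0.985 and 0.997 without heart array 1, 3, 4 or 7 or PBMC array 3, 7 or 8.

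Among the lists that could mark other muscle or fat, Acta1 (skeletal alpha-actin, which rat ventricle also expresses) was at least 16.9-fold higher in the heart. Tnnt3 (-0.62 ± 0.11), Tnnc2 (-0.29 ± 0.11) and Myl11 (-0.50 ± 0.09), the other skeletal muscle genes tested, were not called, and Myh4 was below the floor on all 16 arrays. None of the 3 adipose genes tested was called, Cfd at -0.83 ± 0.54, Cidec at 0.04 ± 0.11 and Pck1 at 0.29 ± 0.16. Of 4 atrial genes, Nppa (4.18 ± 0.54) and Myl7 (2.32 ± 0.87) were higher, and Gja5 (0.96 ± 0.08) and Kcnj3 (0.16 ± 0.06) were not called. The Myl7 call rested on heart arrays 6 and 8, as described below.

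The largest differences in favour of PBMC belonged to T cells and to genes that most lymphocytes share. Cd3d, the CD3 delta chain, read -0.04 to 0.12 on heart arrays with a median of 0.04, and 6.51 to 7.21 on PBMC arrays with a median of 6.85. It was at least 91.7-fold lower in the heart (-6.81 ± 0.10). Cd3g differed by -6.76 ± 0.09, with -0.05 to 0.38 in heart and 6.76 to 7.20 in PBMC. Cxcr4, the receptor of the chemokine CXCL12, was 96.6-fold lower in the heart, at 0.16 to 0.80 against 6.99 to 7.46. Plac8 (88.6-fold) had a wider heart range of 0.45 to 2.34. Ctse, the aspartic protease cathepsin E, was 80.3-fold lower. Cd8a (74.8-fold), Cd247 (the CD3 zeta chain, at least 62.1-fold), Lat (the adaptor below the T cell receptor, at least 54.2-fold) and Lck (the kinase that starts its signal, at least 44.6-fold) are T cell genes. Coro1a (74.6-fold), Rhoh (63.0-fold), Cd69 (58.9-fold), Ptprc (58.9-fold) and Ptprcap (56.9-fold) are shared by lymphocytes. F5, coagulation factor V, had the widest PBMC range of the 15, 5.28 to 7.14, against 0.05 to 1.85 in the heart.

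All 18 T cell genes tested were lower in the heart (29.8% of all genes were), by a median of -3.84, and 14 of them were at background there. Quantile normalization left 17 of the 18 lower. Of 21 pan-leukocyte genes 20 were lower (median -3.97), among them Laptm5 (a lysosomal protein of blood cells, -5.52 ± 0.11), Cd37 (a tetraspanin, -5.25 ± 0.10) and Cd53 (-5.16 ± 0.12), with Cd52 not called at -0.87 ± 0.18. Only 2 of these 21 were at background in the heart. Coro1a read 0.84 to 1.71 and Laptm5 0.98 to 1.37 on every heart array, whereas Cd3d did not exceed 0.12. Averaged over the tested members, the pan-leukocyte list stood at 0.69 to 1.04 on heart arrays and 4.66 to 5.08 on PBMC arrays, and the T cell list at 0.08 to 0.17 on heart arrays and 3.88 to 4.55 on PBMC arrays. As levels of different probes are not comparable, these heart values do not tell which leukocytes the tissue held.

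Of 8 B cell genes 7 were lower in the heart (median -2.05), 6 of them also after quantile normalization. Ms4a1 (CD20, -3.59 ± 0.15), Cd79b (of the B cell receptor, -3.40 ± 0.27), Cd24 (-3.22 ± 0.14) and Cd72 (-2.33 ± 0.19) led, Cr2 was not called (-0.92 ± 0.11), and 6 of the 8 were at background in the heart. Cd79b varied over PBMC arrays, from 2.23 to 4.91. Of 14 NK and cytotoxic genes 13 were lower (median -3.54). Ctsw (cathepsin W, -5.54 ± 0.12), Nkg7 (-5.08 ± 0.16), Gzmk (granzyme K, -4.74 ± 0.13) and Prf1 (perforin, -4.68 ± 0.13) led, and Klrk1 was not called (-0.51 ± 0.09).

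Monocyte and macrophage genes did not share 1 direction. Of 21 tested, 11 were lower in the heart, 2 were higher and 8 were not called (median -1.01), and after quantile normalization 10 were lower and 5 higher. Fcer1g, the signalling chain of Fc receptors, read 2.33 to 3.44 in heart and 6.76 to 7.71 in PBMC (21.5-fold lower in the heart). Fcnb (ficolin B) was at least 13.9-fold lower, Cybb (of the phagocyte oxidase) 8.92-fold and Ctss (cathepsin S) 6.43-fold. C1qc, a chain of complement C1q that tissue macrophages make, was higher in the heart by 1.63 ± 0.28, at 2.11 to 3.02 against 0.02 to 2.34 in PBMC, and Ncf1 by 1.21 ± 0.11. C1qa (0.89 ± 0.27), C1qb (0.98 ± 0.42), the macrophage receptor Mrc1 (0.99 ± 0.11), Cd163 (0.57 ± 0.11), Ms4a7 (0.38 ± 0.10) and Vcan (0.36 ± 0.18) had positive differences below the fold threshold, and Mpeg1 (-0.995 ± 0.106) and Cd14 (-0.68 ± 0.22) negative ones. The 6 neutrophil granule genes tested were not called (median -0.33, near that of all genes), S100a9 and Mpo were below the floor on all 16 arrays, and S100a8 varied from 0.28 to 1.69 in heart and from 0.50 to 4.06 in PBMC. The S100a8 difference of -0.94 ± 0.37 became a call without heart array 7 (-1.06) or without PBMC array 5, 7 or 9 (-1.05 to -1.11).

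Genes of antigen presentation were lower in the heart. All 9 MHC class II genes tested were lower (median -3.32), led by RT1-Da (2.50 to 3.08 in heart, 7.22 to 7.77 in PBMC, -4.62 ± 0.10), RT1-Db1 (-4.44 ± 0.15), RT1-Ba (-4.33 ± 0.13) and RT1-DMa (-3.56 ± 0.14), which loads peptides on class II. Of 16 genes of MHC class I and the immunoproteasome 14 were lower (median -2.51), led by RT1-S3 (-3.52 ± 0.12), the immunoproteasome subunits Psmb8 (-3.51 ± 0.10) and Psmb9 (-3.01 ± 0.14), and the peptide loader Tapbp (-3.22 ± 0.09). Psme1 (-0.70 ± 0.10) and RT1-A2 (-0.53 ± 0.92) were not called. Quantile normalization left 12 of the 16 lower. RT1 genes are close copies that vary between rats, and cross-hybridization was not tested. Of 8 chemokine receptors 5 were lower (median -1.29). After Cxcr4, Ccr7 of naive lymphocytes differed by -3.72 ± 0.19, Ccr6 by -2.09 ± 0.10, Cxcr3 by -1.57 ± 0.15 and the monocyte receptor Ccr2 by -1.01 ± 0.12. After quantile normalization 4 of the 8 were lower, and Ccr2 (-0.78) was not called. Ccr9 (-0.75 ± 0.09), Ccr1 (-0.10 ± 0.10) and Ccr3 (-0.00 ± 0.11) were not called.

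PBMC carried platelet and red cell transcripts as well. All 9 platelet genes were lower in the heart (median -3.15). Gp1bb, of the von Willebrand receptor, read 1.24 to 3.35 in heart and 6.70 to 8.44 in PBMC (-5.70 ± 0.28), Gp9 differed by -4.73 ± 0.24 and F13a1 by -3.93 ± 0.28. Pf4 (platelet factor 4) was 20.2-fold lower in the heart but stayed at 2.53 to 5.52 there, against 7.37 to 8.67 in PBMC, while the platelet gene Ppbp was at or below 0.32 on every heart array. Of 11 red cell genes 7 were lower, 1 was higher and 3 were not called (median -1.15). Quantile normalization left 5 lower and 1 higher. The beta-globin genes Hbb-b1 and Hbb differed by -3.97 ± 0.35 and -3.54 ± 0.23, Ahsp (the chaperone of alpha-globin) by -3.39 ± 0.28 and Alas2 (the heme enzyme of red cell precursors) by -2.54 ± 0.33. Hbb was at 3.28 to 4.81 in the heart and 6.82 to 8.64 in PBMC, and Alas2 at or below 0.09 in the heart. Slc4a1 (-0.69 ± 0.16), Sptb (-0.66 ± 0.13) and Epb42 (-0.61 ± 0.13) were not called. Gypc was called higher (1.10 ± 0.16), but its second probe read -0.04, and without PBMC arrays 2 and 7 the difference was 0.97. Averaged over their members, platelet genes stood at 0.97 to 1.79 in heart and 3.88 to 5.36 in PBMC, and red cell genes at 1.66 to 2.20 in heart and 2.83 to 4.45 in PBMC. The part of blood left in the heart tissue, and of platelets in the PBMC, in the other differences was not tested.

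Of 15 division genes 9 were lower (median -1.29; 7 lower and 1 higher after quantile normalization), led by Cks2 (at least 18.2-fold), the replication helicase subunits Mcm6 (-2.33 ± 0.08) and Mcm7 (-2.21 ± 0.11) and the polymerase clamp Pcna (-2.05 ± 0.20), and 6 were not called, Tyms alone among them with a positive difference (0.91 ± 0.11). Of 58 ribosomal protein genes 41 were lower and none higher (median -1.54), with Rpl31 (-2.99 ± 0.12), Rpl13 (-2.85 ± 0.10), Rps12 (-2.53 ± 0.14) and Rps16 (-2.32 ± 0.17) in front. After quantile normalization 31 of the 58 were lower and 1 was higher, with a median of -1.07. Of 13 genes in common use as references 6 were lower (median -0.93), including Tubb5 (-2.52 ± 0.12), Ywhaz (-2.42 ± 0.14), Rpl13a (-2.14 ± 0.11) and Actb (-2.06 ± 0.21), and 7 were not called. After quantile normalization 6 of the 13 were lower and 1 was higher. Of all 6760 genes, 29.8% were lower and 16% higher before it, and 1314 were lower and 1430 higher after it.

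In gene families with a form listed first, mostly as typical of muscle or heart, and another form, the forms were compared within each array and this contrast between tissues. For Rac1 and Rac2, neither of which is a muscle form, the widely used Rac1 took the first place. Of 34 pairs listed 23 had both members among the expressed genes. In 22 of these the first form was shifted towards the heart relative to its partner (limma, adjusted over the 23 pairs). The pairs were chosen with earlier results of these data known, so this count describes them and supports nothing further. In 10 pairs the members were called in opposite directions. After quantile normalization Vim (-0.67), Slc25a5 (-0.55), Pfkp (-0.43) and Atp1b3 (-0.997) were not called, which left 6 such pairs. Where a form was at background in 1 tissue, its contrast holds the measured values, and its place among the contrasts has no meaning. The reticulum calcium pumps, both above background in both tissues, gave a contrast of 10.88 ± 0.16, where Atp2a2 was higher in the heart by 5.81 ± 0.18 and Atp2a3, the pump of blood cells and platelets, lower by a difference of -5.06 ± 0.16. The Atp2a3 values were 1.08 to 1.89 in heart and 5.64 to 6.91 in PBMC. Myosin heavy chains gave 10.20 ± 0.19, with Myh7, at background in PBMC, at 7.72 to 8.51 in heart and -0.33 to 0.12 in PBMC, and the nonmuscle myosin Myh9 at 0.23 to 0.53 in heart and 1.55 to 2.90 in PBMC. Glycogen phosphorylase gave 9.73 ± 0.16, with the muscle form Pygm higher by 5.54 ± 0.12 and the liver form Pygl at -4.19 ± 0.12. For the coronins, which organise actin, the contrast was 9.58 ± 0.13, with Coro6, also at background in PBMC, at 3.36 ± 0.08 and Coro1a at -6.22 ± 0.11. Des and Vim, the intermediate filaments of muscle and of mesenchymal and blood cells, gave 8.29 ± 0.16, with Vim lower by a difference of -1.19 ± 0.14.

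In another 10 pairs the first form was higher in the heart and its partner was not called. Ldhb, the lactate dehydrogenase subunit that prevails in heart, read 7.96 to 8.06 in heart and 1.40 to 2.35 in PBMC (6.17 ± 0.11), while Ldha differed by -0.01 ± 0.08, at 5.74 to 6.08 in heart and 5.86 to 6.17 in PBMC. The same held for cytochrome c oxidase, where Cox8b differed by 7.35 ± 0.07 and Cox8a by -0.02 ± 0.13, and Cox6a2 by 7.52 ± 0.08 and Cox6a1 by -0.31 ± 0.11. It held for carnitine palmitoyltransferase, with Cpt1b at 4.64 ± 0.07 and Cpt1a at 0.01 ± 0.11, for creatine kinase, with Ckm at 7.92 ± 0.09 and Ckb at 0.42 ± 0.12, and for enolase, with Eno3 at 2.42 ± 0.16 and Eno1 at -0.12 ± 0.10. Actn2 and Actn1 (6.70 ± 0.08 and -0.87 ± 0.12), Csrp3 and Csrp1 (6.53 ± 0.09 and -0.30 ± 0.10), Ryr2 and Itpr2 (1.11 ± 0.11 and -0.93 ± 0.09) and Akap6 and Akap13 (1.34 ± 0.12 and -0.80 ± 0.15) were the other such pairs.

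The remaining families showed other arrangements. Slc25a4 and Slc25a5 (3.47 ± 0.12 and -1.05 ± 0.13), Pfkm and Pfkp (4.20 ± 0.09 and -1.02 ± 0.14), Atp1b1 and Atp1b3 (3.74 ± 0.14 and -1.54 ± 0.10), Slc16a1 and Slc16a3 (2.10 ± 0.13 and -2.23 ± 0.19) and Actc1 and Actb were opposite, of which the first 3 were no longer so after quantile normalization. Prkaa2, the muscle catalytic subunit of AMP-activated kinase, differed by 0.13 ± 0.09 without a call and Prkaa1 by -1.52 ± 0.12. Both Rac1 (-2.94 ± 0.13) and the blood cell form Rac2 (-5.20 ± 0.13) were lower in the heart, Rac2 more so (contrast 2.26 ± 0.16). The exception was caveolin, where Cav3 of muscle (2.39 ± 0.10) and Cav1, abundant in endothelium (2.25 ± 0.13), were both higher in the heart, with a contrast of 0.13 (95% interval -0.16 to 0.43, adjusted p = 0.36 by limma). The calls of Slc25a5 and Pfkp lay near the fold threshold and were lost without some single arrays (-0.986 to -0.999 without heart array 2 or 3 or PBMC array 2 for Slc25a5, and -0.951 to -0.996 without heart array 2, 3 or 8 or PBMC array 4, 7 or 9 for Pfkp).

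**Figure D4:**
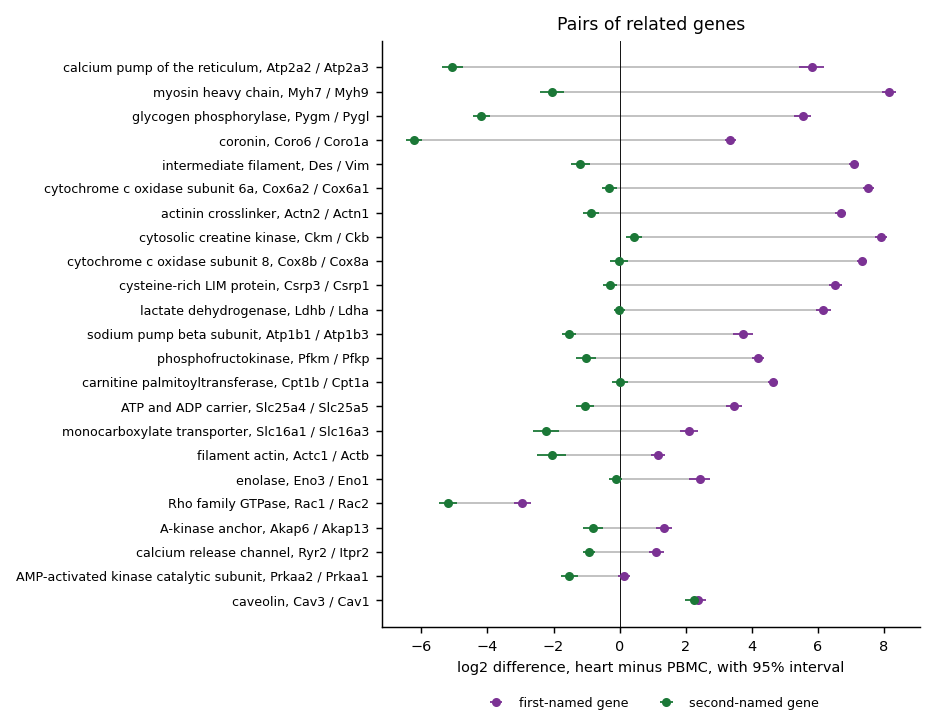
Difference of log2 intensity, heart minus PBMC, with limma's 95% interval, for both members of 23 pairs of related genes, the first-named gene in purple and the second-named in green, ordered by the measured contrast between them, whose order has no meaning where a form was at background. The contrast runs from 10.88 for Atp2a2 and Atp2a3 at the top to 0.13 for Cav3 and Cav1 at the bottom, and it is positive in each pair.

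For 1222 genes (18.1%) the 95% interval of the difference lay within 0.5 of 0 on the log2 scale, which bounds a difference rather than showing that there is none. Of these, 77 had a mean above 4 over both tissues, of 742 tested genes with such a mean. The 6 brightest were Oaz1 (ornithine decarboxylase antizyme, 6.98 to 7.62 in heart and 7.16 to 7.88 in PBMC, -0.15 ± 0.11), Gapdh (6.88 to 7.16 in heart and 6.27 to 7.30 in PBMC, 0.19 ± 0.12), the corepressor Tle5 (-0.15 ± 0.09), the autophagy protein gene Map1lc3b (-0.07 ± 0.10), the translation helicase gene Eif4a2 (-0.04 ± 0.13) and the phosphatase subunit gene Ppp2ca (0.27 ± 0.09). After quantile normalization Gapdh (0.73) and Ppp2ca (0.77) differed by more than 0.5 and the other 4 by 0.29 to 0.46, and none was called. Against the labelled saline arrays Oaz1 differed by 0.26, but Gapdh by 1.37, Tle5 by 2.72, Map1lc3b by 2.82, Eif4a2 by 3.51 and Ppp2ca by 2.40.

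Among genes with a mean above 1, the SD over 8 arrays had a median of 0.23 in the heart (4293 genes) and 0.28 in PBMC (4788 genes), and a few genes varied far more. In the heart, arrays 6 and 8 stood apart. Myl7, the atrial regulatory light chain, read 8.11 on array 6 and 5.996 on array 8, and 0.51 to 2.05 on the other 6. Nppa, the atrial natriuretic peptide gene, read 7.97 and 5.63 on the same arrays and 2.16 to 4.44 on the others. Car3, a carbonic anhydrase of fat and slow muscle, read 4.72 and 4.54 there and at most 0.21 elsewhere. Hamp (hepcidin) was highest on array 6, at 6.83, and 1.40 to 3.84 on the other 7. The fat cell hormone gene Adipoq, which was not expressed by its average, was above the floor on 2 heart arrays, with a highest value of 1.04. Without arrays 6 and 8 the difference of Myl7 was 0.82 and no longer called, and Cfd was called lower (-1.38), while the 20 sarcomere genes stayed higher with a median of 7.22. The part of atrial tissue or fat in these arrays was not tested. Npy (neuropeptide Y) ranged from 0.75 to 5.46 in the heart, highest on arrays 7 (5.46) and 5 (4.17), and from 7.35 to 8.66 in PBMC. The same arrays were highest for Pf4 (5.52 and 4.62) and for F5 (1.85 and 1.22).

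**Figure D5:**
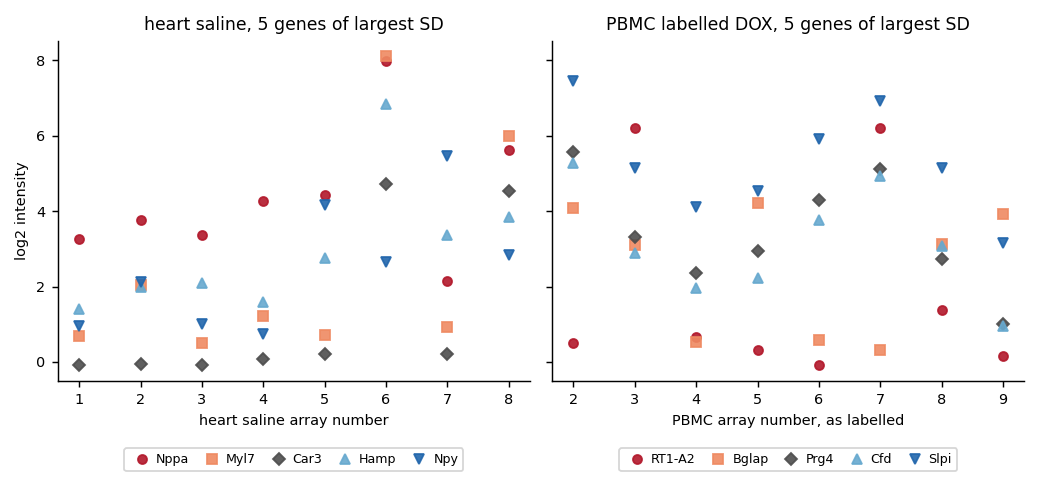
Log2 intensity above background of the 5 genes with the largest SD among the 8 heart saline arrays (left) and among the 8 PBMC arrays labelled DOX 2 to 9 (right), by array number. Myl7, Nppa and Car3 are high on heart arrays 6 and 8, Prg4, Slpi and Cfd are high together on PBMC arrays 2, 6 and 7, and RT1-A2 is high on PBMC arrays 3 and 7 only.

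Among PBMC arrays, Prg4 (lubricin), Slpi (a protease inhibitor) and Cfd (complement factor D) were highest on array 2 (5.57, 7.46 and 5.29), followed by arrays 7 (5.11, 6.91 and 4.94) and 6 (4.29, 5.92 and 3.77), and lowest on array 9 (0.997, 3.15 and 0.95). Bglap (osteocalcin) read 3.10 to 4.22 on arrays 2, 3, 5, 8 and 9 and 0.32 to 0.58 on arrays 4, 6 and 7. RT1-A2, a class I gene, read 6.20 on arrays 3 and 7 and -0.08 to 1.38 on the other 6. In the heart it read 2.32 to 2.98 on arrays 1, 2, 6 and 8 and -0.03 to 0.07 on arrays 3, 4, 5 and 7. The lowest F5 and F13a1 values of the PBMC were on arrays 7 (5.28 and 3.35) and 8 (5.60 and 3.76). Without PBMC arrays 2 and 7, which were left out together after the data had been seen, 5 monocyte and macrophage genes in place of 2 were called higher in the heart, and the medians of the sarcomere and platelet lists were 7.19 and -3.38.

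Which PBMC arrays stand for the control decided much of the PBMC side. Against the labelled saline arrays, 2641 genes (39.1%) were called higher in the heart and 415 (6.14%) lower, and the median difference was 0.66. Of the 1084 higher genes, 1068 were higher in both comparisons, and of the 2016 lower genes, 370 were lower in both and 236 were called higher. No higher gene was called lower. The comparisons share the heart arrays. The labelled saline arrays held 2804 to 5746 distinct values each among 22523 probes, against 22196 to 22417 on the heart arrays and 22278 to 22419 on the PBMC arrays labelled DOX 2 to 9. Their expressed genes had a median 0.93 below that of the heart arrays (two-sided exact permutation p = 0.000622, adjusted over 4 measures 0.00124). The PBMC array labelled DOX 1 (3086 distinct values) and the heart arrays labelled DOX (2826 to 4802) were coarse too. The coarser and dimmer signal of the labelled saline arrays moves with the 2641 higher genes, and its part was not tested.

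The genes with the largest opposite calls were Odc1 (ornithine decarboxylase, -3.25 ± 0.13, and 1.62 against labelled saline), Fem1b (-3.16 and 1.10), Pik3ip1 (-3.11 and 1.74), the splicing factor gene Srsf5 (-2.84 and 1.41), the kinase gene Sik1 (-2.83 and 1.80), Bhlhe40 (-2.69 and 1.76), Plcg1 (-2.60 and 1.26), Ppp4r3a (-2.58 and 1.21), Reps1 (-2.44 and 1.18) and the splicing kinase gene Clk1 (-2.44 and 1.18). Among genes described above as lower in the heart, Idh3b, Mef2d, Vwf, Icam2, Bgn, Mcm7, Rps16 and Atp1b3 had a positive difference without a call against the labelled saline arrays, and Pcna, Vim, Slc25a5 and Pfkp were called higher. Heart genes at background on the PBMC arrays labelled DOX 2 to 9 had little room to rise, the heart arrays being the same. Among them Tnnt2 differed by 8.64, Myh6 by 8.57, Mb by 8.32 and Gja1 by 7.06 against the labelled saline arrays. Some heart genes above background in PBMC moved more, in both directions. Against labelled saline, Atp2a2 went from 5.81 to 8.25, Ogdh from 2.86 to 4.65 and Cycs from 2.92 to 5.26. Tnnc1 went from 7.38 to 6.54 and Aqp1 from 3.73 to 1.61. Several lymphocyte genes were lower there too with smaller differences, Cd3d at -5.58, Cd3g at -5.33, Cd8a at -2.98, Lck at -2.65, Ptprc at -1.43 and Cxcr4 at -1.40. Cd72 (-0.01), Cd24 (-0.29), Cd79b (-0.76) and Stat4 (-0.77) were not called there, and 1 of the 8 B cell genes was lower. Sarcomere, calcium and T cell lists counted 20 of 20 and 15 of 15 higher and 12 of 18 lower there. S100a8 of neutrophils, in contrast, was lower by a difference of -5.51 there and S100a9 by -1.75.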

How the data were processed

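The authors exported bead intensities from GenomeStudio without background subtraction and deposited log2 intensities for 22523 probes, each array centred on its own median. Per the methods, 7 rats had repeat arrays whose part in the columns is not stated. The deposited raw intensities, 34 columns, match no sample label and were not used. The supplementary gene table, which also holds the authors' own fold changes and p-values, served only to find the expressed probes (average over 34 arrays above 0.1524) and the side of each array. From each array the median of its probes not expressed was subtracted. A symbol was known for 13793 probes (13337 genes) from the platform annotation, and none for 8730. Each gene was read from its brightest probe on average, which left 6760 expressed genes. Of 124 genes with several expressed probes, 105 had 1 sign throughout, and 1, Myo19, had a probe above 1 and one below -1.

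Heart saline 1 to 8 was compared with PBMC labelled DOX 2 to 9 by limma 3.58.1 in R 4.3.3 (lmFit, eBayes, no block, Benjamini-Hochberg over 6760 genes). A probe not above background on all 8 arrays of a tissue was set to the array's floor, or to its own value where higher, for an "at least" fold. The groups were also split in all 12870 ways for 4 array measures. Pairs were tested in the same kind of fit. Precision is limited by the 8 arrays a side and, near 0, by background. On simulated data the test recovered 98.5% of genes shifted by 1.5 and 100% of those shifted by 3, with 1 false call each among 6760 genes. These figures hold for the simulated shifts only. They give no error rate for the calls reported here, whose number on each side rests on the scaling. Python 3.11.15, numpy 2.4.6, pandas 2.3.3 and matplotlib 3.10.9 served for the rest.

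The genes, lists and pairs were chosen with earlier results of these data known. Named are the 15 genes with the largest difference in each direction among called genes without overlap between tissues, up to 4 called members of a list and those against its direction, both members of each pair, the 6 brightest alike genes, the 5 most variable per tissue, the 10 largest opposite calls, the cell type markers and members counted as not called or not measured. Mypn, Idh3g and Ccr2 were named after their values were seen. Alternatives changed the normalization, the low-value filter, the probe rule, array weights, p-values, PBMC arrays, replicate block and each array in turn.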

Additional observations from a re-analysis of the deposited data

Results flagged for a closer look

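Over the named genes and the 4 array measures, 400 groups of 8 arrays were examined. Of these, 26 (6.5%), all for genes, held an array that lay far from the other 7. This was judged by Dixon's test on the gap to the nearest of them, where chance gives about 1 in 20. Heart array 6, which had the highest median of the expressed genes among heart arrays (1.79), stood apart for 9 genes, always high. It read 5.08 for Emcn (others 3.76 to 4.35), 3.67 for Fn1 (1.31 to 2.28), 1.70 for Bgn (0.74 to 1.14), 6.70 for Vim (5.53 to 5.96), 1.53 for Csrp1 (0.94 to 1.21), 4.14 for Atp1b3 (3.53 to 3.82), 6.83 for Hamp (1.40 to 3.84), 1.55 for Prg4 (0.35 to 0.65) and 1.62 for Cd14 (0.52 to 0.93).

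Heart array 2 had the lowest median of the expressed genes among heart arrays (1.32). It stood apart for 6 genes, always low, at 8.22 for Tpm1 (others 8.49 to 8.65), 7.84 for Myl3 (8.16 to 8.32), 4.76 for Actb (5.69 to 6.45), 0.47 for Ryr2 (1.05 to 1.47), 0.66 for Akap6 (1.32 to 1.70) and 2.21 for Col3a1 (3.89 to 4.64). Heart array 7 was high for Nfe2 (0.78, others -0.14 to 0.30) and heart array 8 low for Ckb (2.65, others 3.14 to 3.32).

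PBMC array 5 had the lowest 99th percentile of all probes among the PBMC arrays compared (6.49). It stood apart for 6 genes, always low, at 1.75 for Ndufa5 (others 2.22 to 2.64), 3.77 for Stat4 (4.25 to 4.66), 4.55 for Prf1 (5.15 to 5.66), 5.54 for Eif4a2 (6.04 to 6.39), 5.73 for Ppp2ca (5.89 to 6.04) and 4.86 for Clk1 (5.28 to 5.59). The part of array-wide signal in the genes that stood apart was not tested. PBMC array 8 was high for RT1-DMa (4.82, others 3.58 to 4.14) and low for Cryab (-0.14, others -0.01 to 0.11), and PBMC array 3 was high for Cox8b (0.19, others -0.08 to 0.00), the last 2 genes being at background in PBMC.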

How the results depend on the processing

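Of 196 named genes, 190 kept direction and call after quantile normalization (Mef2d, Bgn, Vim, Slc25a5, Pfkp and Atp1b3 lost theirs), 195 with the deposited centring only, 195 of 195 with genes expressed by the 16 arrays, 194 with the mean of all probes, 193 with array weights and 182 with p-values set against genes not expressed, and none changed direction under these. Without each array in turn, genes called higher numbered 1059 to 1108, genes called lower 1944 to 2092 and pairs 22. Quantile normalization called 1314 genes lower. With the replicate block (numbers 2 to 8) 1082 genes were higher and 2013 lower. Same-numbered arrays deviated together at r = -0.123 to 0.045, so the numbers were not taken to pair them. Other matchings of the numbers were not tried, so pairing by rat stays possible.

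The PBMC arrays moved most. All 17 of them gave 1555 genes higher and 688 lower, and Vim (0.25), Slc25a5 (0.31) and Pfkp (0.21) changed sign. With labelled saline, 2641 genes were higher and 415 lower, and with its replicate block 2636 and 410. The heart then exceeded PBMC in the array median (0.93), interquartile range (0.93), 99th percentile (0.69) and distinct values (18371). Members called lower numbered 3 of 15 for blood cell transcription factors, 1 of 8 for B cells, 5 of 6 for neutrophils and 7 of 16 for MHC class I. They numbered 2 of 15 for cell division, 3 of 13 for reference genes and 12 of 58 for ribosomal proteins, where 6.14% of all genes were lower. With or without the block, 22 named genes turned positive, namely Idh3b (0.37), Mef2d (0.34), Vwf (0.21), Icam2 (0.89), Bgn (0.25), Mcm7 (0.079), Pcna (1.30), Rps16 (0.25), Vim (1.21), Slc25a5 (1.25), Pfkp (1.29), Atp1b3 (0.19), Odc1 (1.62), Fem1b (1.10), Pik3ip1 (1.74), Srsf5 (1.41), Sik1 (1.80), Bhlhe40 (1.76), Plcg1 (1.26), Ppp4r3a (1.21), Reps1 (1.18) and Clk1 (1.18). The cause was not tested.

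Chosen after seeing the data, quantile normalization of these arrays gave 3 of 8 B cell, 3 of 15 cell division, 6 of 6 neutrophil and 1 of 3 adipose genes lower. It gave 1 of 4 atrial genes higher. Under it members called lower numbered 8 of 15 for blood cell transcription factors, 12 of 16 for MHC class I and 5 of 13 for reference genes. They numbered 31 of 58 for ribosomal proteins and 20 of 21 for pan-leukocyte genes, the last against 15 without it. The share of all genes called under it is not given, so these counts have no background beside them. Without heart arrays 6 and 8, 1 atrial gene was higher and 1 adipose gene lower, and without PBMC arrays 2 and 7, 1 neutrophil gene was lower. Signal over background limits what genes near 0 can show.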
